A study of Bos taurus with 21 samples.

Results

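The small RNA of extracellular vesicles, membrane-bound particles that cells shed into milk, was compared between 7 cows with clinical mastitis and 7 healthy cows. Clinical mastitis is an inflammation of the udder with visible signs. These 14 libraries were chosen by the health state in their labels, out of 21 in the series, where the other 7 come from cows with subclinical mastitis, an udder inflammation without visible signs. The series describes 7 cows per group, as many as the libraries. Its labels do not tie a library to an animal or say how cows were chosen, so p-values concern these libraries only. Those of exact permutation rest on the spread between them. Those of limma, a linear model for single entries, also borrow from the spread of other entries and of the subclinical libraries. No breed, age, stage of lactation, pathogen or treatment is given in the labels.

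MicroRNAs are short RNAs that guide Argonaute proteins to complementary sites in messenger RNAs, which are then degraded or translated less. They are cut from hairpin precursors, and part of the pool leaves the cell inside vesicles, where the membrane shields it from nucleases. Milk vesicles come mostly from mammary epithelium in a healthy udder. During clinical mastitis, neutrophils and other leukocytes enter the milk in large numbers.

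The deposited table holds 126 entries, and 89 carry the name of a known miRNA while 37 carry a provisional identifier made of a prefix and a number, such as X_42271. The table pairs the provisional identifiers with no sequence, gene or position, so that their role is unknown here and they are given as listed. Values are shares of the reads that fell on listed entries, given below in percent or as RPM, reads per 1000000 listed reads. A share is relative: when an abundant entry takes more of a library, all others take less. The steps between values imply how many reads each share rests on, between 2851 and 5511 in clinical and between 954 and 9587 in healthy libraries (median of all 14, 4428). 1 read was therefore worth 181.5 to 350.8 RPM in clinical and 104.3 to 1048 RPM in healthy libraries. Of the 126 entries, 58 were above 0 in at least 1 of the 14 libraries and 16 in all of them. Those 16, all provisional, took 90.8% to 99.9% of the reads of a library.

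A pair of libraries lay nearer to the other group than to their own. By Bray-Curtis distance, which is 0 for equal and 1 for disjoint profiles, healthy 3 had a median distance of 0.069 to clinical and 0.199 to the other healthy libraries. Clinical 4 was at about the same distance from both, 0.145 to the other clinical and 0.141 to healthy libraries. The remaining 6 clinical and 6 healthy libraries were nearer to their own group. The main results are also given without healthy 3 and without clinical 4. All 21 pairs of clinical and all 21 pairs of healthy libraries differed by more than counting noise (chi-square of implied reads per degree of freedom of at least 3.28 and 3.0), a comparison that covers counting error only.

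The listed reads of clinical libraries were more dominated by a few entries than those of healthy libraries. The 3 most abundant entries, X_42271, 16_27381 and 2_2827, together took 84.5% ± 6.31 of the reads in clinical and 65.3% ± 13.7 in healthy libraries (SD, n = 7 each). In clinical milk their sum was lowest at 74.5% in clinical 4, had a median of 87.5% and was highest at 91.1% in clinical 10. In healthy milk it was lowest at 43.6% in healthy 6, had a median of 68.0% and was highest at 85.2% in healthy 3. The next 3 entries by mean over the 14 libraries, 17_28610, X_41367 and 17_28203, moved the other way. Together they took 6.99% ± 4.16 in clinical and 26.1% ± 15.2 in healthy libraries (SD, n = 7 each). All the other entries together took about the same share in both groups, 8.54% ± 2.76 in clinical and 8.61% ± 3.87 in healthy libraries.

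**Figure D1:**
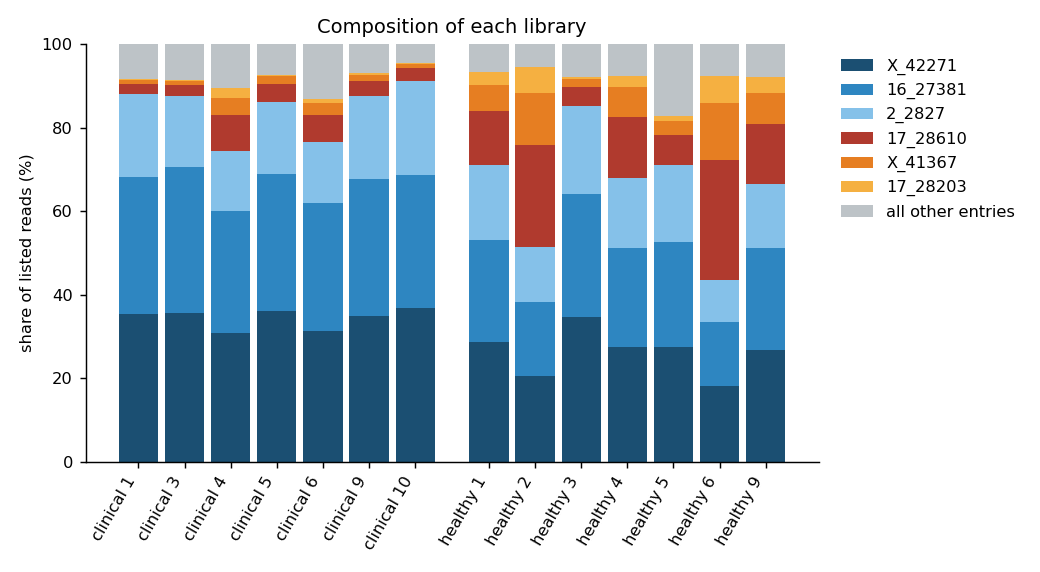
Composition of the 14 libraries, as the share of listed reads in percent (vertical axis) for 6 abundant entries (colours) and all other entries together (grey). The blue entries summed to between 74.5% and 91.1% in the clinical libraries on the left and between 43.6% and 85.2% in the healthy libraries on the right.

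Entry 17_28610 was the most abundant of those that fell. Its share was lowest at 2.47%, had a median of 3.47% and was highest at 8.48% in clinical libraries, against 4.44%, 14.4% and 28.5% in healthy libraries. The lowest healthy libraries, healthy 3 at 4.44% and healthy 5 at 7.13%, lay inside the clinical range, and the other 5 healthy libraries lay above it. The log2 difference was -1.68 (SE 0.30, 3.21-fold lower in clinical milk, limma adjusted p = 5.67e-05, Benjamini-Hochberg across the 126 entries).

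Entry X_41367 was lowest at 0.898%, had a median of 1.49% and was highest at 4.14% in clinical libraries, against 2.0%, 7.17% and 13.8% in healthy libraries. Clinical 4 and clinical 6 were the clinical libraries that overlapped the healthy range. Its log2 difference was -1.95 (SE 0.38, 3.86-fold lower, limma adjusted p = 0.000114).

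Entry 17_28203 ranged from 0.145% to 2.32% with a median of 0.421% in clinical libraries, and from 0.55% to 6.49% with a median of 3.10% in healthy libraries. The highest clinical value was that of clinical 4, and the next was 0.922% in clinical 6, so that 5 of 7 clinical libraries lay below all healthy ones. Its log2 difference was -2.57 (SE 0.51, 5.92-fold lower, limma adjusted p = 0.000141).

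Entry 16_27381, the second most abundant, rose. It was lowest at 29.4%, had a median of 32.7% and was highest at 35% in clinical libraries, against 15.3%, 24.3% and 29.5% in healthy libraries. Only healthy 3 reached into the clinical range, and no more than past clinical 4. The log2 difference was 0.52 (SE 0.14, 1.43-fold higher, limma adjusted p = 0.0154).

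These were the 4 entries that passed, 3.17% of the 126 tested, of which 1 was higher in clinical milk (0.794%) and 3 were lower (2.38%). Before adjustment, 9 entries had p under 0.05 (7.14%). No entry had groups that did not overlap (0%). Within limma, the 4 calls rest on a model in which low entries vary more than abundant ones. Without that trend none passed (limma adjusted p of 0.0871 to 1 for the 4), and 6 entries had an unadjusted p under 0.05. None passed by exact permutation of single entries either (adjusted p of 0.0857 to 0.105), and 10 had an unadjusted p under 0.05. That adjustment ran over all 126 entries, of which 68 were at 0 in all 14 libraries and could not pass. The permutation p was not adjusted over the other 58 alone, so its failure does not show that the 4 calls need limma's model. The call of 16_27381 was also lost without healthy 2 (adjusted p = 0.0597) or healthy 6 (0.0626), which hold its lowest shares. Without healthy 3, the log2 differences were -1.94 for 17_28610, -2.22 for X_41367, -2.95 for 17_28203 and 0.58 for 16_27381, and 6 entries passed, 2 higher and 4 lower. Without clinical 4 they were -1.86 for 17_28610, -2.18 for X_41367, -2.96 for 17_28203 and 0.54 for 16_27381, and 4 entries passed, 1 higher and 3 lower.

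**Figure D2:**
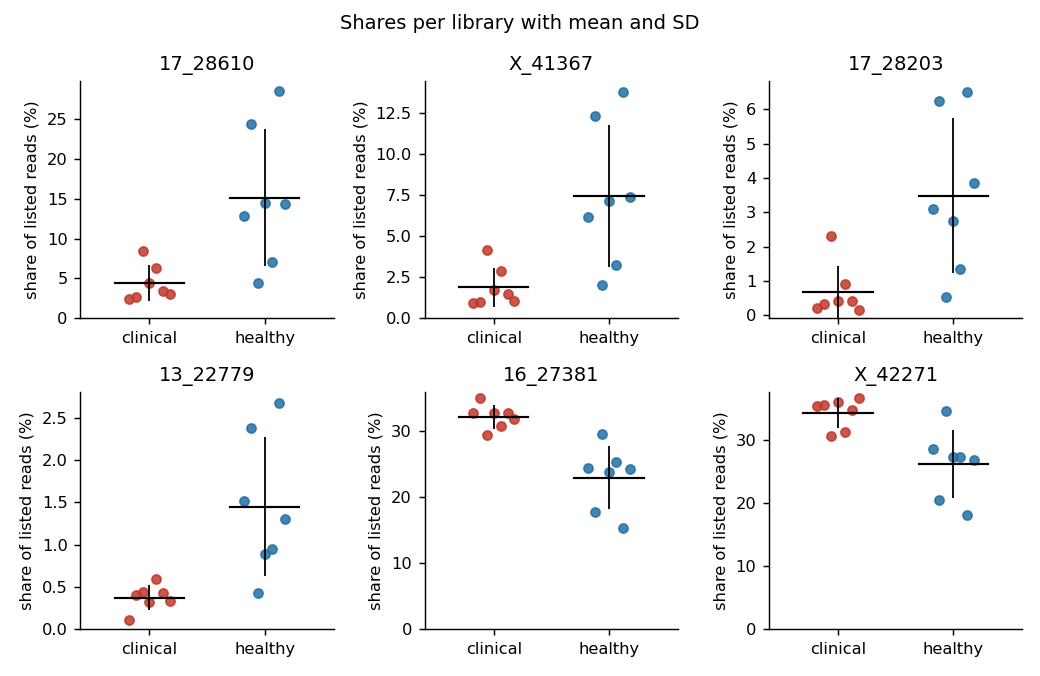
Share of listed reads in percent (vertical axes) for 6 entries, 1 point per library, clinical on the left and healthy on the right, with the mean (horizontal line) and SD (vertical line) of 7 libraries. Clinical libraries of 17_28610 sit between 2.47% and 8.48% and healthy ones between 4.44% and 28.5%, with overlap at the lower healthy end.

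The next entries by limma p did not pass. By exact permutation of single entries, however, they ranked among the 4 that did. The unadjusted permutation p was 0.00175 for 13_22779 and 0.00233 for X_42271. It was 0.00117 for 16_27381, 0.0035 for X_41367, 0.00408 for 17_28610 and 0.00583 for 17_28203. After adjustment the permutation p was 0.0857 for both 13_22779 and X_42271. Entry 13_22779 was lowest at 0.11%, had a median of 0.401% and was highest at 0.595% in clinical libraries, against 0.432%, 1.31% and 2.69% in healthy libraries. Healthy 3 was again the healthy library inside the clinical range. The log2 difference was -1.88 (SE 0.61, limma adjusted p = 0.0628), and it passed in 7 of 30 alternatives, among them the 14 libraries fitted alone (0.012) and the fit without healthy 3 (0.021). Entry X_42271, the most abundant of all, was lowest at 30.7%, had a median of 35.4% and was highest at 36.8% in clinical libraries, against 18.1%, 27.4% and 34.6% in healthy libraries. Healthy 3, at 34.6%, was the 1 healthy library that reached the clinical range. Its log2 difference was 0.42 (SE 0.14, limma adjusted p = 0.0628). It passed in 6 of 29 alternatives, such as the 14 libraries alone (adjusted p = 0.0444) and without healthy 3 (0.0118).

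The third of the dominant entries, 2_2827, did not pass. It took 17.9% ± 3.01 in clinical and 16.2% ± 3.62 in healthy libraries (SD, n = 7 each), a log2 difference of 0.16 (SE 0.17, limma adjusted p = 1).

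Because shares constrain each other, ratios of entries were taken within each library. Such a ratio does not depend on the other entries or on the scaling. Between the 5 most abundant entries there are 10 ratios, which share entries and so are not 10 separate results. All 10 differed between clinical and healthy libraries in an exact two-sided permutation test over 3432 regroupings (adjusted p of 0.00699 to 0.0122 over the 10). Each passed without any 1 of the 14 libraries (highest adjusted p = 0.0233), so that no single library, healthy 3 and clinical 4 included, decides them.

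The ratio of X_42271 to 17_28610 was lowest at 3.62, had a median of 10.1 and was highest at 14.3 in clinical libraries, against 0.636, 1.90 and 7.80 in healthy libraries. In healthy 2 and healthy 6 the ratio was under 1, so that 17_28610 outnumbered the entry that leads every other library. On the log2 scale the difference was 2.10, from a mean of 3.09 ± 0.76 in clinical and 0.99 ± 1.23 in healthy libraries (SD, n = 7 each, exact permutation adjusted p = 0.00699). The 6 ratios between a dominant entry and 17_28610 or X_41367 differed by 1.84 to 2.47 on the log2 scale. They differed by 2.17 to 2.8 without healthy 3 and by 2.07 to 2.71 without clinical 4.

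Smaller differences were found inside each set. For every read of 2_2827 there were 1.41 to 2.11 reads of 16_27381 in clinical libraries (median 1.90), against 1.34 to 1.58 in healthy libraries (median 1.4). Clinical 10 was the 1 clinical library inside the healthy range. The log2 difference was 0.35 (exact permutation adjusted p = 0.00699 over 10 ratios). The ratio of X_42271 to 16_27381 had the smallest SD of the 10 ratios in both groups, with 1.02 to 1.16 in clinical and 1.08 to 1.19 in healthy libraries. It was lower in clinical milk by a log2 difference of -0.10 (exact permutation adjusted p = 0.0122). X_42271 was also higher relative to 2_2827, with ratios of 1.63 to 2.15 in clinical and 1.48 to 1.78 in healthy libraries (log2 difference 0.26, exact permutation adjusted p = 0.00999).

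Among the entries that fell, the ratio of 17_28610 to X_41367 was 2.05 to 2.90 in clinical libraries (median 2.61) and 1.94 to 2.22 in healthy libraries (median 2.06). Clinical 4 and clinical 6, in which the fallen entries were least low, were the clinical libraries inside the healthy range. The log2 difference was 0.27 (exact permutation adjusted p = 0.00999). For every 100 reads of 17_28610 there were 12.7 ± 7.16 reads of 17_28203 in clinical and 21.4 ± 4.94 in healthy libraries (SD, n = 7 each). For 13_22779 the same figure was 9.13 ± 3.89 in clinical and 9.88 ± 2.22 in healthy libraries. These last values are descriptions and were not tested.

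**Figure D3:**
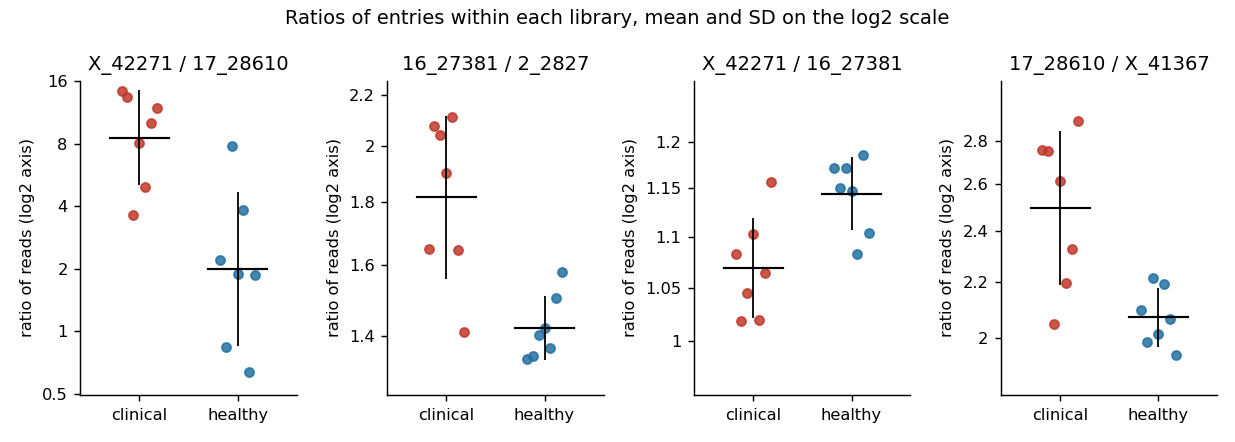
Ratio of the reads of 2 entries in each library (vertical axes, log2), clinical on the left and healthy on the right, with the mean and SD on the log2 scale over 7 libraries. The ratio of X_42271 to 17_28610 spans 3.62 to 14.3 in clinical and 0.636 to 7.80 in healthy libraries, and the other panels span much narrower ranges.

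Of the 16 entries read in all 14 libraries, 8 had a positive and 8 a negative log2 difference. Entry 12_21573 took 2.48% ± 0.841 in clinical and 1.23% ± 0.431 in healthy libraries (SD, n = 7 each). It ranged from 1.22% to 4.02% in clinical and from 0.709% to 1.92% in healthy libraries, and clinical 10 was the 1 clinical library below the healthy mean. Its log2 difference of 1.02 (SE 0.40, limma adjusted p = 0.206) did not pass. It did pass after centred log ratio scaling (limma adjusted p = 0.0127) and when entries averaging under 1000 RPM were left out (0.0142). By exact permutation of single entries its p was 0.00408 (adjusted p = 0.0857), the same as for 17_28610. Entry X_41828 took 0.552% ± 0.4 in clinical and 0.23% ± 0.124 in healthy libraries (log2 difference 1.16, SE 0.73, limma adjusted p = 0.905).

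Entry 26_37774 took 0.423% ± 0.21 in clinical and 0.807% ± 0.4 in healthy libraries, with no clinical library above the healthy mean (log2 difference -0.94, SE 0.59, limma adjusted p = 0.905). For entry 18_30249, too, each clinical library was under the average of healthy ones, at 0.111% ± 0.0755 in clinical and 0.231% ± 0.202 in healthy libraries (log2 difference -0.81, SE 0.91, adjusted p = 1). For both entries, however, healthy 1, healthy 2, healthy 6 and healthy 9 were under the healthy mean as well. Clinical and healthy medians were 0.301% and 0.645% for 26_37774, and 0.0802% and 0.117% for 18_30249. Entry 4_8133 took 1.90% ± 1.02 in clinical and 1.31% ± 0.506 in healthy libraries, and it varied from 0.762% to 3.85% among clinical cows. Its log2 difference was 0.46 (SE 0.42, adjusted p = 1).

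Entry 6_10969 shows how 1 library can set a mean. Its clinical mean of 0.65% and healthy mean of 0.259% differ because clinical 4 held 3.18%, while the other clinical libraries held 0.0602% to 0.417%. The log2 difference of 0.31 became -0.29 without clinical 4, with an adjusted p of 1 both ways. Entries 17_28475, 2_2859 and 15_26127 had log2 differences of -0.49, -0.37 and 0.10 with SEs of 0.67, 0.87 and 0.97 (limma adjusted p = 1 for each). These SEs lean on limma's trend over all entries, so what they could detect is set in part by that model. By exact permutation of single entries the unadjusted p was 0.357 for 17_28475, 0.226 for 2_2859 and 0.901 for 15_26127.

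**Figure D4:**
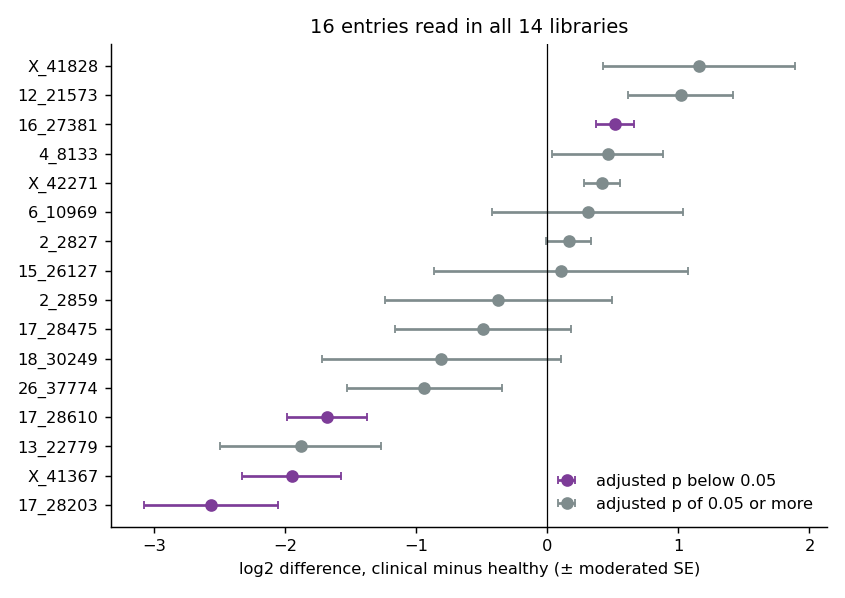
Log2 difference between clinical and healthy libraries (horizontal axis, clinical minus healthy) with its moderated SE (bars) for the 16 entries read in all 14 libraries. Of the 4 entries with an adjusted p below 0.05, 16_27381 lies at 0.52 and the other 3 between -2.57 and -1.68.

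The remaining entries were missing from at least 1 library, and most rest on few reads. Of 42 entries above 0 in some but not all of the 14 libraries, 19 were provisional. Entry 17_28269 had 2 reads in 2 clinical libraries and 12 reads in 6 healthy libraries (unadjusted p = 0.0106, limma adjusted p = 0.191), and passed without clinical 3 (0.037) or healthy 4 (0.0433). Entry 10_19052 had 6 reads in 5 clinical libraries and 1 read in 1 healthy library, healthy 5 (unadjusted p = 0.0369, adjusted p = 0.516). Entries 2_4412 and 18_29617 held identical values in all libraries, from 0% to 1.13% in clinical and from 0.073% to 2.52% in healthy libraries, so that they count as 1 observation (limma adjusted p = 0.905). In clinical libraries alone 15 entries were read, with 37 reads in all, and in healthy libraries alone 10 entries, with 15 reads. None of these 15 was read in more than 3 clinical libraries, and none of these 10 in more than 2 healthy libraries.

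Known miRNAs were nearly absent from both groups. Of the 89 named entries 23 were above 0 in the 14 libraries (17 under a bovine, 4 under a human and 2 under a mouse name), with 25 reads in clinical and 25 in healthy milk. That is a pooled 849 RPM in clinical (Poisson 95% interval 549.7 to 1254) and 779.8 RPM in healthy libraries (504.7 to 1151). Intervals cover counting error only. Named miRNAs took 0.0201% to 0.2% of the reads of a clinical library and 0% to 0.734% of a healthy library. A name was read in 14 cases in clinical and in 14 cases in healthy milk, and 5 were read in both. Of the 23, 16 were above 0 in 1 library only, and 14 rest on 1 read.

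Between names, clinical milk held 6 reads of the human-named hsa-miR-8485, all in clinical 10, and 5 reads of miR-1246 in 2 libraries, and healthy milk held 0 of either. In human cells, reads under the name miR-1246 can come from U2 small nuclear RNA. Healthy milk held 5 reads of miR-21-5p, a miRNA raised in many inflamed tissues, with 4 in healthy 5 and 1 in healthy 4, and clinical milk held 0. Without healthy 5, the smallest library, 1 read is left. With 29434 clinical reads in all, a count of 0 allows a level of up to 102 RPM (3 reads in the whole group). There were 1 read of let-7b in clinical and 4 in healthy milk, 2 reads of miR-30a-5p in clinical and 1 in healthy milk, and 2 reads of miR-574 in clinical and 4 in healthy milk. The let-7 family restrains proliferation and is made in most differentiated cells. The other names with reads in both groups, miR-11972 and miR-2887, had 1 read each in clinical and 1 each in healthy milk. Read in clinical milk alone, with 1 read each, were let-7g, miR-11988, miR-181c, miR-2484, the human-named hsa-miR-1260a and hsa-miR-1972, and the mouse-named mmu-miR-7116-5p. In healthy milk alone, let-7a-5p had 2 reads, and 1 read each fell on miR-143, miR-1839, miR-19a, miR-23a, miR-99b, the human-named hsa-miR-574-3p and the mouse-named mmu-miR-6238. None of the 23 passed limma's test (lowest adjusted p = 0.905).

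Marker miRNAs of the cells that shed vesicles into milk were at 0 or near it. Of the leukocyte list, 2 of 8 members are in the table, miR-181a and miR-181b, and both were at 0 in all 14 libraries. The defining myeloid and lymphoid members miR-223, miR-142, miR-150 and miR-155 are not among the listed entries. Of the epithelial list, 2 of 8 are listed, miR-182 and miR-183, and both were at 0, and no member of the miR-200 family is listed. The 1 listed erythrocyte marker, miR-16b, and the endothelial miR-126-3p were at 0 in all 14 libraries. Of the mesenchymal list 2 of 4 are listed, and miR-143 had 0 reads in clinical and 1 in healthy milk. The cells of origin were therefore not checked by these markers, and any part of leukocyte vesicles in the differences was not tested.

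Broader lists were as sparse. Of the miRNAs known to be abundant in milk, 10 entries are listed, of which 2 were above 0 in clinical (3 reads) and 4 in healthy milk (12 reads). Of 12 miRNAs known to respond to NF-kB or to inflammation, 4 are listed, with 0 reads in clinical and 5 in healthy milk, all of them miR-21-5p and 4 of them in healthy 5. The let-7 family has 6 listed entries with 2 reads in clinical and 6 in healthy milk, and the miR-30 family 4 entries with 2 and 1 reads in clinical and healthy milk. No member of any list passed. The median log2 difference was 0 in each of these 4 lists, as over all 126 entries, of which 68 were at 0 in all 14 libraries. Many list members had no reads either, so these medians say nothing about a change.

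The shape of the profile was summarised in 7 measures per library. Shannon diversity, which is low when few entries hold most reads, was 2.39 ± 0.24 bits in clinical and 2.79 ± 0.19 bits in healthy libraries (SD, n = 7 each). The clinical values ran from 2.14 to 2.73 with a median of 2.29, and the healthy values from 2.43 in healthy 3 to 3.06 in healthy 5 with a median of 2.81. The difference was -0.395 bits (exact two-sided permutation p = 0.00524, adjusted p = 0.0184 over 7 measures). The summed share of the 3 most abundant entries, given above, was higher in clinical milk by 19.2 percentage points (exact permutation p = 0.00408, adjusted p = 0.0184). Both adjusted values lie near the threshold. Diversity passed in 5 and the summed share in 8 of the 14 comparisons that leave out 1 library, and the highest adjusted p was 0.0591 and 0.0551. Both passed without healthy 3 (-0.454 bits and 22.5 points) and without clinical 4 (-0.449 bits and 20.8 points).

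The number of entries above 0 did not separate the groups, with 26 ± 3.06 in clinical and 26 ± 2.38 in healthy libraries. Thinned to the 954 reads of the smallest library, 19.4 ± 2.37 entries were expected in clinical and 20.7 ± 4.08 in healthy libraries (exact permutation adjusted p = 0.755). No difference in the number of entries was detectable at this depth. Healthy libraries were on average farther from the mean of the rest of their group, at a Bray-Curtis distance of 0.0758 ± 0.0335 in clinical and 0.156 ± 0.101 in healthy libraries, which did not pass (exact permutation p = 0.074, adjusted p = 0.173). Implied reads averaged 4205 ± 983 in clinical and 4580 ± 2821 in healthy libraries (adjusted p = 0.89, exact permutation).

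As whole profiles the groups differed. Of the squared Bray-Curtis distances among the 14 libraries, 44.8% lay between the groups (exact permutation p = 0.00233). Distances had a median of 0.0869 within clinical, 0.195 within healthy and 0.216 between clinical and healthy libraries. Leaving out 1 library gave 41.5% to 57.6%, with 57.6% without healthy 3 and 47.9% without clinical 4, and each passed (exact permutation p of 0.000583 to 0.00641). With distances of log2(RPM + 1) the share was 10.1% (exact permutation p = 0.0723). On that scale a step from 0 to 1 read is large, so that rare entries weigh heavily.

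The size of a library was set beside the share of the entries that fell. Over the 7 healthy libraries the log2 share of 17_28610 correlated with log2 implied reads at Pearson r = 0.77 (exact permutation p = 0.0435, adjusted p = 0.166) and Spearman rho = 0.82 (p = 0.0341, adjusted p = 0.0853). Without healthy 2 and healthy 5, the libraries farthest from the median, r was 0.86. For X_41367 in healthy libraries r was 0.78 (exact permutation p = 0.0377, adjusted p = 0.166) and rho 0.89 (p = 0.0123, adjusted p = 0.0615). The dominant 2_2827 ran the other way there, with r at -0.66 (exact permutation p = 0.111, adjusted p = 0.166) and rho at -0.89 (p = 0.0123, adjusted p = 0.0615). Without the same pair of libraries r was 0.86 for X_41367 and -0.84 for 2_2827. Over the 7 clinical libraries r was -0.73 (exact permutation p = 0.0681, adjusted p = 0.166) and rho -0.61 (p = 0.167, adjusted p = 0.238), with r at -0.85 without clinical 5 and clinical 6, for 17_28610. Adjustment was over 10 relations, none of which passed, and a library's size includes the reads of the entry itself.

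The groups could be compared at matched size, since healthy 1, healthy 4 and healthy 9 have between 2851 and 5511 implied reads, the range of the clinical libraries. In these 3 healthy libraries 17_28610 took 12.9%, 14.4% and 14.4% of the reads, above the highest clinical value of 8.48%. In all, 6 of the 126 entries (4.76%) did not overlap between the 7 clinical and these 3 healthy libraries. Of these, 17_28610, X_41367, 17_28203 and 13_22779 were lower in every clinical library (4 entries, 3.17%), and 16_27381 and X_42271 were higher (2 entries, 1.59%). Matching by size also left out healthy 3 and healthy 5, the healthy libraries in which 17_28610 lay inside the clinical range. With the other healthy libraries left out of the fit, the log2 differences were -1.79 for 17_28610, -2.10 for X_41367 and -2.82 for 17_28203, and all passed limma's test (adjusted p of 3.25e-06, 8.75e-05 and 0.000199). The rise of 16_27381 was then 0.41 on the log2 scale and did not pass (adjusted p = 0.406). Of the 10 ratios, the 6 between a dominant and a fallen entry passed (exact permutation adjusted p = 0.0583 for each of the other 4). The comparison at matched size was chosen after the data were seen.

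**Figure D5:**
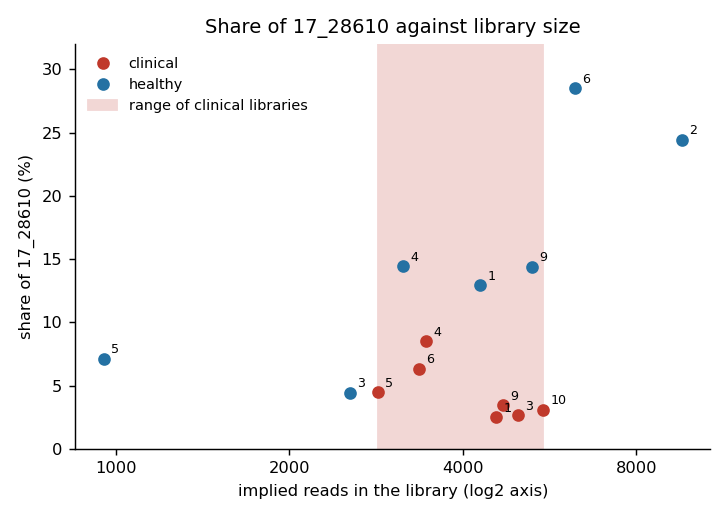
Share of 17_28610 in percent (vertical axis) against the implied reads of each library (horizontal axis, log2), with replicate numbers beside the points and the clinical range of 2851 to 5511 reads shaded. Within the shaded range the healthy libraries lie at 12.9% to 14.4% and the clinical libraries at or below 8.48%.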

How the data were processed

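The deposited table, named TPM by the authors, covers 126 entries in 21 libraries and has 3 columns of group means (equal to the means of the libraries to within 4.3e-07), which were not used. Each column sums to 1000000 and every value above 0 lies within 0.01 of a whole multiple of the column's smallest, so the deposited values are RPM with no division by length. Per the labels' protocols, a miRNeasy kit was used for extraction and TruSeq small RNA chemistry for the libraries. Per the submitters' processing notes, Bowtie, edgeR and build ARS-UCD1.2 were used. The trimming, the miRNA database and what each tool did were not given in the sources used here. Of 79 bovine names, 78 matched a RefSeq gene table (ARS-UCD2.0). Implied reads are column totals divided by the smallest step. They are not the sequencing depth. No count model was fitted, and implied reads served as counts only in the chi-square comparison of libraries, the Poisson intervals and the thinning.

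Entries were tested with limma-trend (R 4.3.3, limma 3.58.1) on log2(RPM + 1), all 21 libraries in 1 fit, contrast clinical minus healthy, Benjamini-Hochberg adjustment over entries averaging 1 RPM or more (all 126, of which 68 were at 0 in all 14 libraries compared), called under 0.05. Fold changes are on that scale. Ratios, measures and distances were tested by exact permutation in SciPy 1.17.1 (NumPy 2.4.6, pandas 2.3.3, Python 3.11.15), and figures drawn with matplotlib 3.10.9. The fit was tested on simulated data. Clinical columns begin with CM where titles begin with M, and were matched by replicate number. Entries named are those that passed, had an unadjusted p under 0.05, were above 0 in all 14 libraries, were among the 5 most abundant or carried a miRNA name with reads in either group. Entries 2_4412, 18_29617 and 29_39931 were named after their values were seen. The libraries, lists and tests were chosen with earlier results of these data known. Alternatives were other scalings, pseudocounts, filters, fits and distances, the replicate number as a block and each library left out. Log2 implied reads as a covariate and matched library size were added after the data were seen.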

Additional observations from a re-analysis of the deposited data

Results flagged for a closer look

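In 70 groups of 7 values, covering shares, measures and ratios, 8 had a highest value far from the rest by Dixon's test, which chance gives in about 1 in 20. Those in clinical milk are both from clinical 4, with 2.32% of 17_28203 against 0.145% to 0.922% in the other 6, and 3.18% of 6_10969 against 0.0602% to 0.417%. In healthy milk, healthy 4 held 0.635% of 6_10969 against 0.105% to 0.32%. The other 5 are from healthy 5, the smallest library (954 implied reads). It held 0.105% of 10_19052, which is 1 read, against 0% in the other healthy libraries, 0.839% of 15_26127 against 0.0233% to 0.254%, and 1.47% of 17_28475 against 0.229% to 0.635%. Its expected number of entries at 954 reads was 29 against 16.8 to 21.6, and its share of named miRNAs 0.734% against 0% to 0.186%.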

How the results depend on the processing

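The 3 falls kept their direction in all 30 alternatives and passed in 27 each, and the rise of 16_27381 kept its direction in all 30 and passed in 24. Counts of entries called were 4 (1 higher, 3 lower) as reported. They were 0 higher and 0 lower, 0 in all, without trend, with exact permutation per entry and with the replicate block (6, 10 and 9 with an unadjusted p under 0.05), and 7, of which 3 higher, with a minimum mean of 1000 RPM. Entries called higher were 2 with the 14 libraries alone, after median-of-ratios scaling and with log2 implied reads as a covariate, 3 after centred log ratio scaling and 0 with healthy libraries of matched depth. Leaving out 1 library gave 3 to 6 calls, 0 to 2 higher and 3 to 4 lower. The scalings shifted log2 differences by 0.241 (median-of-ratios) and 0.41 (centred log ratio), relative to which the 4 changes kept their sides. The labels do not say whether equal replicate numbers pair the cows. Same-numbered libraries deviated together at correlations of -0.56 to 0.41 over 6 pairs, 3 of them over 0.1. So few pairs with such mixed values cannot decide whether a pairing exists. With the replicate block in limma, adjusted p was 0.286 for 17_28610 and 0.237 for the other 3. For the ratios the block was another test, an exact swap of groups within the 6 same-numbered pairs, without clinical 10 and healthy 2. In it 9 of 10 ratios passed, each at the smallest unadjusted p that 6 pairs allow, 0.03125.

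Entries with a small difference changed sign: 15_26127 to -0.026 with a pseudocount of 500 and between -0.30 and 0.57 with 1 library left out, 2_2859 to 0.035 after centred log ratio scaling, and 6_10969 between -0.29 and 0.67 with 1 library left out. All 10 ratios passed with 1 library left out, and 6 at matched depth. Of the 7 measures 2 passed, 0 to 2 with 1 library left out, 0 at matched depth and 0 without the most abundant entry. Matched depth allows 120 regroupings, too few for 1 measure alone to pass after adjustment over 7, whatever its values. Diversity differed by -0.394 at matched depth (adjusted p = 0.117), by -0.435 without the most abundant entry (0.0571), and by -0.454 to -0.349 with 1 library left out. The summed share differed by 15.9 (0.0583), by 9.37 (0.0571) and by 15.6 to 22.5. At matched depth its groups did not overlap (lowest clinical 74.5%, highest healthy 71.1%), and 0.0583 is the lowest adjusted p it could reach alone. At matched depth the thinned number of entries differed by 1.06 and the distance to the group mean by 0.0334, both of opposite sign to the values reported. With 1 library left out, thinned entries ran from -1.93 to 0.597, the share of named miRNAs from -0.119 to 0.00299 percentage points and implied reads from -979 to 459.5. The whole-profile share was 10.1% with log2 distances (exact permutation p = 0.0723). Causes were not tested, and depth limits what low entries can show.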
